A study of Mus musculus with 2 samples.

Results

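A set of genes for vasoactive signalling was followed in perivascular cells (PCs) of the mouse aorta: the peptide gene Edn1, the endothelin receptor genes Ednra and Ednrb, the angiotensin receptor genes Agtr1a and Agtr2, the natriuretic peptide receptor genes Npr1, Npr2 and Npr3, and the soluble guanylate cyclase subunit genes Gucy1a3 and Gucy1b3. They were listed by name from their roles in vessel tone, with earlier results of these data known, and are 10 of the 20211 gene symbols listed. RNA of primary PCs cultured from the aorta of adult C57BL/6 mice was sequenced, with 1 wild-type (WT) library and 1 library from Kai1 knockout (Kai1-/-) mice. KAI1 is a tetraspanin encoded by Cd82. How the knockout allele was made and how many animals were used per culture are not given in the sources used here. The comparison asks how these genes differ between PCs of WT and knockout mice of KAI1, a membrane protein whose role in vessel growth the study examined. With 1 library per genotype there was no replicate and no test, and any difference between animals, cultures or library preparations cannot be told apart from genotype.

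Mural cells set the tone of a vessel by reading opposing signals. Endothelin-1, made from the Edn1 precursor by converting enzymes such as ECE1, and angiotensin II act on G protein-coupled receptors that raise cytosolic calcium and contract the cell. Nitric oxide (NO) activates soluble guanylate cyclase, and natriuretic peptides activate the membrane guanylate cyclases encoded by Npr1 and Npr2. Both routes make cyclic GMP, which relaxes the cell, whereas the receptor encoded by Npr3 lacks a cyclase and clears the peptides.

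Expression was given as RPKM, a read number scaled to transcript length and library size, so that levels can be compared between genes. Genes that averaged 1 RPKM or more over the libraries are called expressed here, and 3 of the 10 members were: Npr2, Npr3 and Edn1. Another 4, Ednra, Gucy1b3, Npr1 and Ednrb, were above 0 but below 0.5 RPKM in the WT library, and Agtr1a, Agtr2 and Gucy1a3 were listed at 0 in both. The order of levels in WT PCs was Npr2, Npr3, Edn1, Ednra, Gucy1b3 and Npr1, and in Kai1-/- PCs it was Npr2, Npr3, Edn1, Ednra and Gucy1b3.

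**Figure D1:**
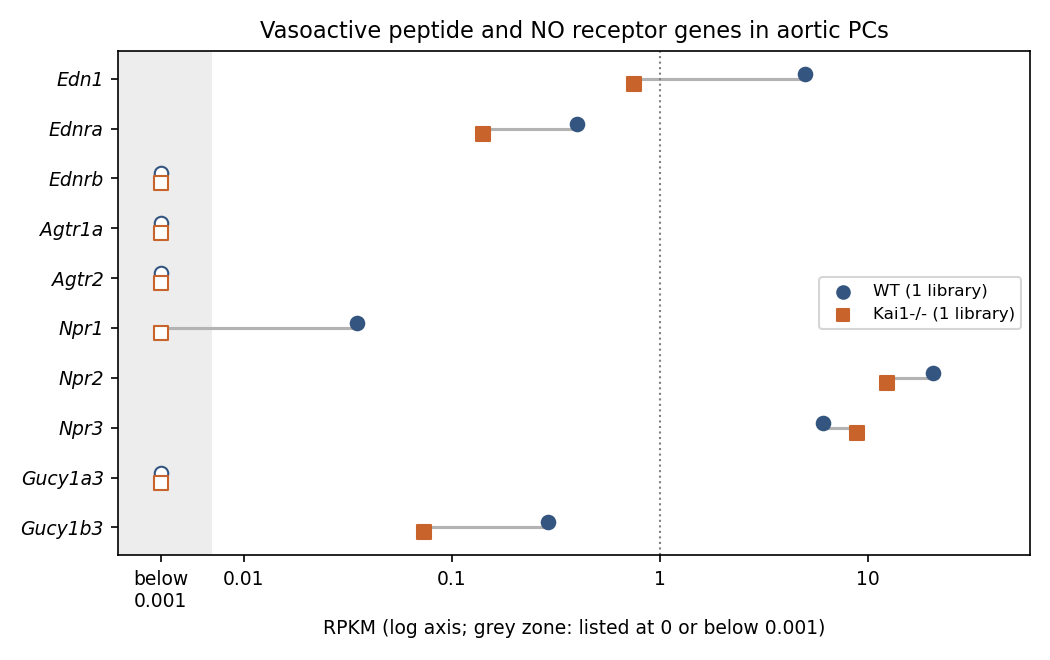
RPKM of each gene in the WT library (circles) and the Kai1-/- library (squares) on a log axis; open symbols in the grey zone are genes listed at 0 or below 0.001, and the dotted line marks an RPKM of 1. Npr2 and Npr3 lie to the right of that line in both libraries, Edn1 only in WT, and Npr3 is the one gene with a higher value in the Kai1-/- library.

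The 2 libraries differed in many genes, which sets the frame for these 10. The targeted gene Cd82 stood at 12.8 RPKM in WT and 2.62 in Kai1-/- PCs, so that 20.5% of the WT level, about 113 reads, remained in the library labelled Kai1-/-, and which part of the transcript these reads cover was not tested. Log2 ratios are those of Kai1-/- to WT, taken with a pseudocount of 0.1 RPKM, so that differences of low genes come out too small. Of the 10068 expressed genes, 7.81% were over 2-fold lower and 7.98% over 2-fold higher in Kai1-/- PCs, and over all 20211 symbols these shares were 9.29% and 5.96%. The split depended on scaling: 786 genes were lower and 803 higher as deposited, 1251 and 447 with the upper quartiles made equal, where the median of all expressed genes went from 0.08 to -0.19, and 1856 and 278 with scaling to Gapdh, where it went to -0.41. The spacing of the low RPKM values gave depths near 29550000 (WT) and 26600000 reads (Kai1-/-), from which approximate read numbers per gene were taken. The 4 Y-linked genes examined, Ddx3y, Eif2s3y, Kdm5d and Uty, were above 0 in WT and at 0 in Kai1-/-, so that the sex of the cells and the genotype cannot be told apart.

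The label of the cells was checked against marker genes. Of 13 mural markers, Acta2 stood at 3823 RPKM in WT and 2580 in Kai1-/- PCs, Tagln 633 and 307, and Smtn 35.6 and 42.5. Pdgfrb and Cspg4, markers of pericytes and other mural cells, stood at 44.7 and 31.6 and at 15.4 and 8.27 RPKM. Rgs5, Abcc9 and Kcnj8, which also mark pericytes, stood at 0.0630, 0.0411 and 0 RPKM in WT and at 0.233, 0.0303 and 0.791 in Kai1-/- PCs. Fibroblast markers ranged widely, with Col1a1 at 924 in WT and 534 in Kai1-/- PCs, Col1a2 at 824 and 377, and Ly6a at 1354 and 569. Thy1 was at 324 and 380, Dcn at 10.8 and 8.22, Pdgfra at 2.01 and 0.854, and Lum at 0.0541 and 0. The cultures thus had RNA of smooth muscle and fibroblast genes, though not of every marker at a high level, and of Pdgfrb and Cspg4. Rgs5, Abcc9 and Kcnj8 were each below 1 RPKM. Of 6 macrophage markers found, Csf1r (11.7 and 2.66 RPKM) and Lyz2 (3.44 and 1.09) were expressed, both over 2-fold lower in Kai1-/- PCs. A gene on the other strand overlaps 16.7% of the exon bases of Csf1r. The summed level of the 6 was 16.4 and 4.23 RPKM, most of it from Csf1r. Cd68 was at 1.17 and 0.464, Ptprc at 0.0407 and 0.00697, Itgam at 3.54e-07 and 0.00268, and Emr1 was listed at 0 in both. Whether such cells were present was not tested.

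Edn1 was the member with the greatest difference. It encodes the precursor of endothelin-1 and lies at chr13:42396639-42403358 on the plus strand of the mouse build NCBI37, with 1 annotated transcript. Its level was 5.01 RPKM in WT PCs and 0.751 in Kai1-/- PCs, which is 15% of WT. The log2 ratio was -2.59, and 1.30% of expressed genes had a lower one. Edn1 was below 1 RPKM in Kai1-/- PCs and so is in this ranking through its WT value. About 317 and 43 reads lie behind the RPKM values. Counting error by itself gave the ratio without a pseudocount a 95% interval from -3.20 to -2.28. Of the 3 expressed members, Edn1 alone was over 2-fold lower and 0 were over 2-fold higher. A count over 3 genes is too small to set against the shares of 7.81% and 7.98% over all genes.

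Because Edn1 is well known as an endothelial gene, endothelial markers were read beside it. Of 10 markers, 3 were at 0 in WT PCs (Emcn, Cldn5 and Esam) and 9 were at 0 in Kai1-/- PCs. Pecam1 went from an RPKM of 0.413 to 0, Tek from 0.409 to 0 and Kdr from 0.122 to 0, while Flt1, the one marker above 1, was 1.23 and 1.01. The summed RPKM of the 10 markers was 2.22 in WT and 1.01 in Kai1-/- PCs, so that Edn1 alone exceeded the whole marker list in WT but not in Kai1-/- PCs. The part of such cells in the Edn1 value was not tested. In bulk RNA, fewer cells of one type and less RNA per cell cannot be told apart.

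The sequence before the Edn1 start is shown because Edn1 is the member that differed most. These are the 250 bases before the annotated start of the GENCODE M1 gene, chr13:42396389-42396638 on the plus strand of NCBI37, and capitals mark the matches to the motifs searched.
Edn1 upstream: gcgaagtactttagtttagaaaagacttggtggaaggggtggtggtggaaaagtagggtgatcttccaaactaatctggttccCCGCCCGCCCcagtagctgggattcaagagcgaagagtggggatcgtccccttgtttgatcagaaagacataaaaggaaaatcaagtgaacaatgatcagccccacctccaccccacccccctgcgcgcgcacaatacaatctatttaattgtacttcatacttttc
Both strands were searched for short motifs, and each is given with its share of 22375 windows of the same length before protein-coding genes. A GC box, spelled GGGCGG, was found as overlapping matches on the minus strand from 167 to 158 bases before the start, and 39.6% of the windows held one. No match was found for the AP-1 motif TGANTCA (6.00% of windows), for the cyclic AMP response motif TGACGTCA (1.91%) or for the hypoxia motif ACGTG (17.5%). The letters of the factor motif GATAA (21.5%), of the start site motif TATAAA (12.3%) and of the CArG motif of smooth muscle genes (1.34%) were also not in the window. The window had a GC content of 48.0% and 8 CpG dinucleotides, against medians of 54.0% and 8. RefSeq places the Edn1 start 206 bases further downstream, and the window lies before both starts. The 206 bases between the window and the RefSeq start were not searched, so the missing matches hold for this window only.

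The receptors for endothelin-1 were near the lower end of what was measured. Ednra encodes the ETA receptor, the contractile endothelin receptor of smooth muscle, and lies at chr8:80186930-80248363. Its RPKM was 0.402 in WT PCs and 0.141 in Kai1-/- PCs, from about 41 and 13 reads. This is 35.1% of WT, a log2 ratio of -1.06, and without a pseudocount the 95% counting interval ran from -2.41 to -0.60. The interval includes changes of less than 2-fold. Ednrb, at chr14:104213842-104243390, encodes the ETB receptor. It was listed at 1.14e-07 RPKM in WT PCs, far below the 0.00893 that 1 read would give, and was listed at 0 in Kai1-/- PCs, so that no ratio between the receptors was taken.

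Among the other endothelin genes, Ece1, which encodes an enzyme that cleaves big endothelin to the active peptide, was at 41.7 RPKM in WT and 17.9 in Kai1-/- PCs (log2 ratio -1.22). Ece2, a related enzyme gene, was at 45.2 and 58.7, a ratio of 0.38 that was -0.12 with scaling to Gapdh. Its symbol covers 11 annotated transcripts that 1 value per gene does not separate. Edn2 and Edn3, the genes of the other endothelins, were listed at 0 in both libraries. Of these 4 genes, 2 were expressed, with 1 over 2-fold lower, 0 over 2-fold higher and a median log2 ratio of -0.42. A count over 2 genes is too small to set against the 7.81% lower and 7.98% higher among all expressed genes. The ligand gene and Ece1 were thus both lower in Kai1-/- PCs, and Ece1 had a higher RPKM than Edn1 in each library.

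The angiotensin receptors gave no signal. Agtr1a, at chr13:30428310-30474736, encodes the AT1a receptor, which mediates most effects of angiotensin II in the mouse, and Agtr2, at chrX:21061670-21066290, encodes the AT2 receptor. Both were listed at 0 in both libraries, as was Agtr1b, the close copy of Agtr1a. For Agtr1a, 3 reads would have given an RPKM of 0.0508 in WT and 0.0564 in Kai1-/- PCs, and for Agtr2 0.0329 and 0.0366. A level above these limits should have been seen if the zeros are counts of no reads, but the files do not state whether a 0 is a count or a failed estimate. A difference between the genotypes was therefore not detectable.

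Other genes of this axis were present. Of 10 genes listed, 9 were in the files, and 3 of these were expressed, with 0 past 2-fold in either direction and a median log2 ratio of -0.17. With 3 genes, this count is too small to set against the 7.81% lower and 7.98% higher among all expressed genes. Agtrap, whose product binds the AT1 receptor and promotes its internalisation, stood at 13.8 RPKM in WT and 7.72 in Kai1-/- PCs, a ratio of -0.83 that passed 2-fold with the upper quartiles made equal (-1.10) or with scaling to Gapdh (-1.32). Atp6ap2, the (pro)renin receptor gene, was at 14.7 and 13.1, and Lnpep, which encodes an aminopeptidase that binds angiotensin IV, at 1.94 and 1.95. The precursor gene Agt was at 0.495 and 0.274 and the converting enzyme gene Ace at 0.196 and 0.0894, from at most 27 reads in a library.

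The natriuretic peptide receptors held the most abundant members, Npr2 and Npr3, which as deposited differed in opposite directions. Npr2, at chr4:43644807-43664116 on the plus strand, encodes guanylate cyclase B, the receptor for C-type natriuretic peptide. Its level was 20.5 RPKM in WT and 12.4 in Kai1-/- PCs (60.5% of WT), from about 2094 and 1140 reads. The log2 ratio was -0.72, less than a 2-fold difference, with a 95% counting interval from -0.83 to -0.62 without a pseudocount. A lower ratio was seen in 12.7% of expressed genes. In the annotation, 5.70% of the exon bases of Npr2 overlap an antisense gene, and no strand setting is given for the RPKM values.

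Npr3, at chr15:11769651-11835429 on the minus strand, encodes the clearance receptor. Its RPKM was 6.10 in WT and 8.87 in Kai1-/- PCs, from about 1213 and 1586 reads. The Kai1-/- value was 1.45 times that of WT, a log2 ratio of 0.53 with a counting interval from 0.43 to 0.65, and 23.1% of expressed genes had a higher ratio. With both libraries scaled to Gapdh, the ratio of Npr3 was 0.04 and that of Npr2 was -1.22, which is past 2-fold. The signs of both were the same under each of the 4 scalings, but with scaling to Gapdh the Npr3 ratio was smaller than its counting error of ± 0.11.

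A ratio of 2 genes within a library does not move with its scaling. Npr2 had 3.36 times the RPKM of Npr3 in WT PCs and 1.40 times in Kai1-/- PCs, a pair chosen after the values were seen. The log2 ratio of Npr2 to Npr3 was 1.26 lower in the Kai1-/- library, with a counting error of ± 0.15 at 95%. Npr2 made up 76.9% of the summed RPKM of the 3 natriuretic peptide receptors in WT and 58.3% in Kai1-/- PCs. So Npr2 gave most of this summed RPKM in both libraries, and the share of Npr3 beside it was larger in Kai1-/- PCs. These are RNA values and do not give the amounts of the receptors. Npr2 has 11 annotated transcripts that 1 value per gene does not separate.

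Npr1, at chr3:90254513-90269788, encodes guanylate cyclase A, the receptor for atrial and B-type natriuretic peptides. Its RPKM was 0.0349 in WT PCs, about 4 reads, and it was listed at 0 in Kai1-/- PCs, where 3 reads would have given 0.0292. No fold was taken from these values. In WT PCs Npr1 thus stood at 0.00171 of the RPKM of Npr2 and 0.00572 of that of Npr3. An antisense gene overlaps 11.7% of its exon bases.

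Of 7 other genes of natriuretic peptide signalling, 2 were expressed, with 0 over 2-fold lower, 1 over 2-fold higher and a median log2 ratio of 0.55. Here too, 2 genes are too few to set against the 7.81% lower and 7.98% higher among all expressed genes. The higher one was Nppa, the gene of atrial natriuretic peptide, at 0.593 RPKM in WT and 2.03 in Kai1-/- PCs (log2 ratio 1.62). It rests on about 12 and 36 reads, and 61.5% of its exon bases overlap an antisense gene. Furin, which encodes a protease that processes peptide precursors, was at 12.8 and 8.82 RPKM, a ratio of -0.53 that was -1.02 with scaling to Gapdh. Nppc, the gene of the ligand of the Npr2 product, was listed at 0 in both libraries.

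**Figure D2:**
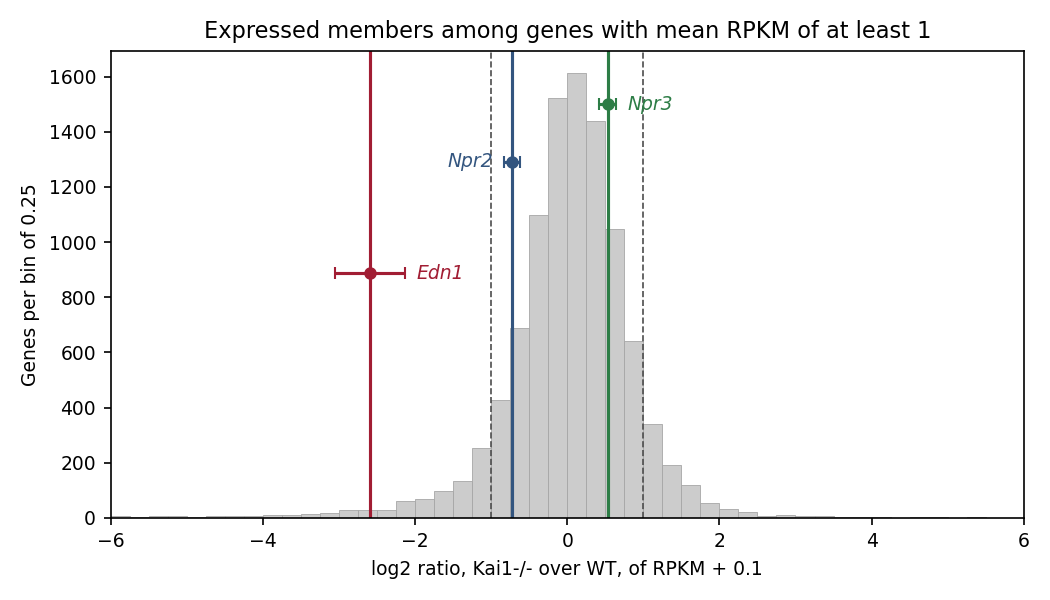
Grey bars count the 10068 expressed genes (1 RPKM or more on average) by their log2 ratio of Kai1-/- to WT, in bins of 0.25; the coloured lines are the 3 members in that set, with horizontal bars for the 95% counting error, and dashed lines mark 2-fold. Edn1 at -2.59 lies in the lower tail, and Npr2 at -0.72 and Npr3 at 0.53 lie on either side of the centre within the dashed lines.

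The NO receptor was at the edge of detection. It is a dimer of an alpha and a beta subunit, encoded by Gucy1a3 at chr3:81896350-81949799 and Gucy1b3 at chr3:81835926-81878633, neighbouring genes on the minus strand with 17.7 kilobases between them. Gucy1a3 was listed at 0 in both libraries, where 3 reads would have given 0.0228 RPKM in WT and 0.0253 in Kai1-/- PCs. Gucy1b3 was at 0.289 RPKM in WT and 0.0740 in Kai1-/- PCs, from about 26 and 6 reads (log2 ratio -1.16). Its counting interval without a pseudocount was wide, from -3.25 to -0.69. Gucy1a2, the gene of the other alpha subunit, is named after its values were seen and was at 0.447 and 0.105 RPKM, from about 67 and 14 reads. The alpha and beta subunit genes above 0 were thus below 0.5 RPKM in each library and lower in Kai1-/- than in WT PCs.

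Without the filter on expression, a ratio could be taken for 5 members, and 3 of them were over 2-fold lower: Edn1, Ednra and Gucy1b3. The other 2, Npr2 and Npr3, were within 2-fold. With a pseudocount of 1 RPKM, Ednra was at -0.30 and Gucy1b3 at -0.26, within 2-fold, and Edn1 at -1.78. The shares over all 20211 symbols were 9.29% lower and 5.96% higher. They are not on the same base, because 28.15% of the symbols were at 0 in WT and 34.15% in Kai1-/- PCs. Beside Edn1, the member count rests on Ednra and Gucy1b3 with 13 and 6 reads in the Kai1-/- library. The median log2 ratio was -0.72 over the 3 expressed members, against 0.08 over all 10068 genes.

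NO synthesis and supply were covered by a list of 13 genes, which also held the cyclase subunit genes Gucy1a2 and Gucy1b2. Of the 13, 4 were expressed, with 1 over 2-fold lower, 0 over 2-fold higher and a median log2 ratio of -0.27. Such a count over 4 genes is too small to set against the 7.81% lower and 7.98% higher among all expressed genes. The lower one was Ddah1, whose product breaks down asymmetric dimethylarginine, an inhibitor of NO synthases, at 93.05 RPKM in WT and 28.3 in Kai1-/- PCs (log2 ratio -1.71). Ddah2 was at 26.6 and 23.5, Nosip, which encodes a protein that binds NO synthase, at 28.9 and 32.5, with a ratio of 0.17 that was -0.33 with scaling to Gapdh, and Cyb5r3, which encodes a reductase, at 302 and 235. The neuronal and endothelial synthase genes Nos1 and Nos3 were listed at 0 in both libraries, and the inducible one, Nos2, was at 0.0980 in WT and 0 in Kai1-/- PCs.

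Downstream of cyclic GMP, 13 genes for its effectors and for its breakdown were listed. Of these, 8 were expressed, with 2 over 2-fold lower, 1 over 2-fold higher and a median log2 ratio of -0.38. Among all expressed genes 7.81% were lower and 7.98% higher, and 8 genes are few to set against these shares. Pde1b, a calcium-dependent phosphodiesterase gene, was at 2.07 RPKM in WT and 0.258 in Kai1-/- PCs, a ratio of -2.60. Pde3a was at 1.97 and 0.691, a ratio of -1.39. Pde5a, which encodes the cGMP-specific phosphodiesterase that sildenafil inhibits, was at 0.737 and 2.93, a ratio of 1.86. The phosphodiesterase genes past 2-fold thus differed in both directions.

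Of the kinases that cyclic GMP activates, Prkg2 was at 1.54 RPKM in WT and 0.874 in Kai1-/- PCs, a ratio of -0.75. Prkg1, the gene of the main smooth muscle isoform, was below the filter and is named after its values were seen, at 1.10 and 0.237 from about 60 and 12 reads. Mrvi1, whose product joins this kinase to the calcium release channel, was also below the filter and named in the same way, at 0.491 and 0.0465. Vasp, which encodes a substrate of these kinases, was at 48.9 and 38.6, a ratio of -0.34.

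The G proteins to which endothelin and angiotensin receptors couple were expressed in both libraries. Of 24 genes for G proteins, phospholipases, calcium release channels and regulators, 19 were expressed, with 3 over 2-fold lower, 2 over 2-fold higher and a median log2 ratio of -0.22. The shares among all expressed genes were 7.81% lower and 7.98% higher, and these counts are small beside them. Gnaq, the Gq alpha subunit, was at 9.14 RPKM in WT and 4.26 in Kai1-/- PCs, a ratio of -1.08, whereas its relative Gna11 was at 59.1 and 56.1, a ratio of -0.07. Rgs16, which encodes a GTPase activator that shortens Gq signals, was at 5.51 and 0.947, a ratio of -2.42, and Rgs3 at 6.71 and 3.28, a ratio of -1.01. Arrb2, a beta-arrestin gene, was at 3.04 and 9.41, a ratio of 1.60, and Plcb4, a phospholipase C gene, at 1.96 and 4.50, a ratio of 1.16 that was less than 2-fold with the upper quartiles made equal or with scaling to Gapdh.

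**Figure D3:**
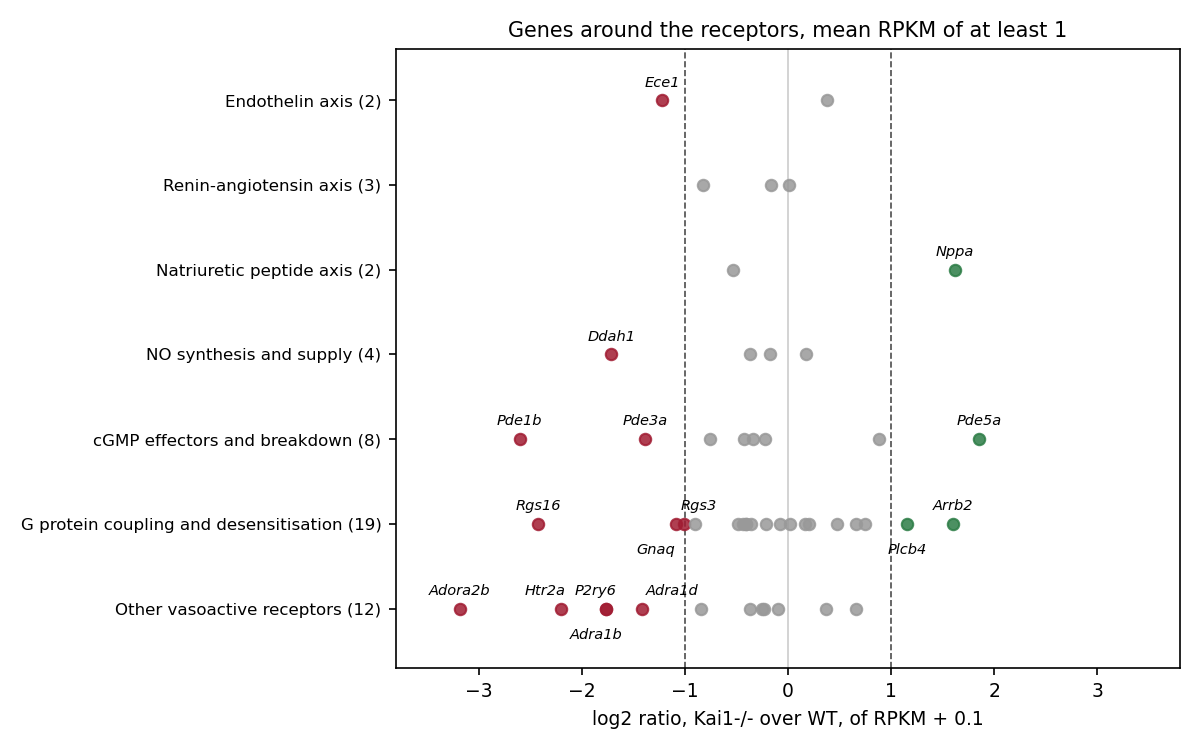
Each point is an expressed gene (1 RPKM or more on average) placed by its log2 ratio of Kai1-/- to WT, in rows by gene list with the number of genes in parentheses; dashed lines mark 2-fold, red points lie below and green points above. Named points are the 12 genes over 2-fold lower and the 4 over 2-fold higher, and 5 of the 12 are in the row of other vasoactive receptors.

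Over the 7 lists together, 50 of the 105 genes in the files were expressed. Of these, 12 (24%) were over 2-fold lower and 4 (8%) over 2-fold higher, beside 7.81% and 7.98% of all genes. Of the lower genes, Pde1b, Pde3a, Rgs16, Htr2a, P2ry6 and Adora2b passed the filter only through WT, being below 1 RPKM in Kai1-/- PCs. Of the higher ones, Nppa and Pde5a passed it only through Kai1-/- PCs. The lists were compiled with earlier results of these data known, so these shares are a description only. With a pseudocount of 1 RPKM, 8 list genes were over 2-fold lower and 2 over 2-fold higher. The other scalings all move ratios down, so that the lower genes had to stay past 2-fold, and of the 4 higher genes all but Plcb4 stayed so too. Without the filter, 27 of the 105 genes were over 2-fold lower and 8 over 2-fold higher, beside 9.29% and 5.96% of all 20211 symbols. Unlike the member count, these counts take in genes listed at 0 in 1 library, whose ratio rests on the pseudocount. The lower ones include Avpr1a, a vasopressin receptor gene, at 1.98 RPKM in WT and 0 in Kai1-/- PCs, and Htr1b, a serotonin receptor gene, at 1.09 and 0. In the annotation, 66.9% of the exon bases of Htr1b overlap an antisense gene. The higher ones include Rgs2, a regulator of Gq signals, at 0.409 and 1.36 RPKM. Bdkrb1, a bradykinin receptor gene, was at 0.119 and 1.15 RPKM from about 4 and 35 reads. Avpr1a, Htr1b, Rgs2 and Bdkrb1 are named after their values were seen. Mural markers moved alongside: of 13, 8 were expressed, and 4 of these, Tagln, Cnn1, Myh11 and Mcam, were over 2-fold lower, while Smtn had a ratio of 0.25. The summed RPKM of the 13 was 4681 in WT and 3021 in Kai1-/- PCs, and Acta2, the most abundant of them, had a ratio of -0.57. Of 7 fibroblast markers, 6 were expressed and 3 of these, Pdgfra, Col1a2 and Ly6a, were over 2-fold lower, with a median ratio of -0.96 beside -0.97 for the mural markers and a summed RPKM of 3438 and 1869. The part of either marker list in these counts was not tested.

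**Figure D4:**
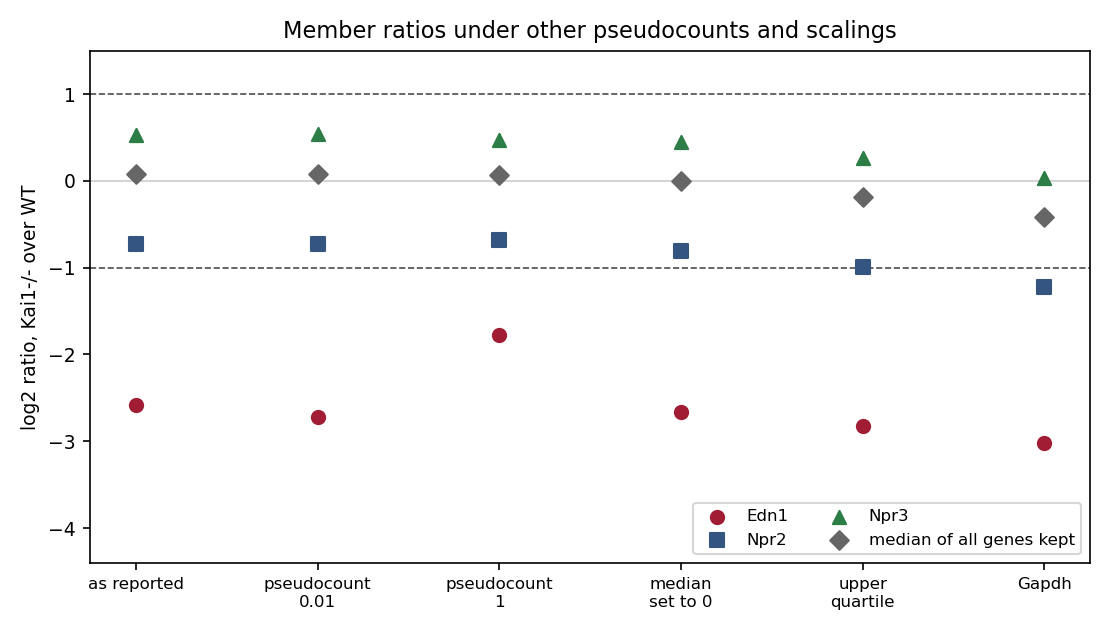
Log2 ratio of Kai1-/- to WT for Edn1, Npr2 and Npr3 and the median of the 10068 genes, as reported and with other pseudocounts (RPKM) or scalings of the libraries; dashed lines mark 2-fold. Edn1 stays below -1 in each, Npr2 passes -1 only with scaling to Gapdh (-1.22), and Npr3 stays above 0, down to 0.04.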

How the data were processed

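RNA of WT and Kai1-/- PCs was sequenced, 1 library each. The authors aligned reads to mm9 (NCBI37) with TopHat2 2.0.9 and Bowtie and deposited 1 RPKM value per gene and library. Depth, strand setting and zero handling are not given in the sources used here. The files have 20462 rows: 38 lacked a gene symbol and were dropped, and rows of 153 symbols listed more than once were averaged. Log2 ratios used a pseudocount of 0.1 RPKM, and expressed genes averaged 1 RPKM or more. Reads per gene were estimated from steps of whole reads in low values of 5776 genes with 1 annotated transcript over 800 bases, less a fragment length of 200 bases. About 80.7% (WT) and 80.9% (Kai1-/-) of low values were whole to within 0.15 reads. Reads used the longest GENCODE M1 transcript, and intervals cover counting error only. The step fit and 2-fold calls were tested on simulated data.

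The members and lists were chosen with earlier results of these data known. Named are all members, genes past 2-fold of each list (at most 4 per direction), and expressed ligand, enzyme or effector genes. Outside this rule, Edn2, Edn3, Agtr1b, Agt, Ace, Nppc, Nos1, Nos2 and Nos3 are named although they were not expressed. The genes marked as named or chosen after their values were seen are also outside it. Ren1 was not matched in the files. Other pseudocounts, scalings, filters and handling of repeated symbols were tried. Python 3.11.15, numpy 2.4.6, pandas 2.3.3 and matplotlib 3.10.9 were used.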

Additional observations from a re-analysis of the deposited data

How the results depend on the processing

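Other settings were a pseudocount of 0.01 or 1 RPKM, 3 scalings, other filters and the highest row of a repeated symbol. Edn1 ranged from a log2 ratio of -3.02 to -1.78, Npr2 from -1.22 to -0.68, Npr3 from 0.04 to 0.54, Ednra from -1.45 to -0.30 and Gucy1b3 from -1.83 to -0.26, and none changed sign. The pseudocount of 1 RPKM took Ednra and Gucy1b3 within 2-fold. Of 30 ratios of single members, 25 moved by less than the counting error (the ± value at 95%) and 5 further. This error was ± 0.90 for Ednra and ± 1.28 for Gucy1b3, so their shifts to within 2-fold are among the 25. With a pseudocount of 1 RPKM, 8 list genes were over 2-fold lower in place of 12 and 2 over 2-fold higher in place of 4.

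With the upper quartiles made equal, the median of the members was -0.99 and that of all genes -0.19, with 1251 genes lower and 447 higher in place of 786 and 803. Scaled to Gapdh, 2 members were lower, their median was -1.22 and that of all genes -0.41, with 1856 genes lower and 278 higher. Without a filter, 3 members were lower with a median of -1.06, as were 27 list genes, with 8 higher, and 1878 and 1205 of all symbols. Members at or near 0 in a library were left out of this count, but list genes and other symbols at 0 were not. At an average of 5 RPKM or more, which drops Edn1, 0 members were lower with a median of -0.10, 5 list genes were lower and 1 higher, and 350 and 511 of all genes. These shifts follow from the scaling or from which genes are counted.

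The RPKM ratio of Npr1 to Npr2 in WT was 0.00656 with 0.1 added, 0.00171 with 0, 0.00219 with 0.01 and 0.0482 with 1. That of Npr1 to Npr3 was 0.0217, 0.00572, 0.00735 and 0.146. The ratio of Npr2 to Npr3 was 3.32 with 0.1 added and 3.02 with 1 in WT. The other planned pairs gave no value, since 1 gene was at or near 0. No paired analysis was possible because there is a single library of each genotype. Read depth limits Ednra, Gucy1b3 and Npr1.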

Other observations

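Receptors through which vessels sense other transmitters and metabolites ranged widely in level, with 6 of 35 genes at 0 in WT and 8 at 0 in Kai1-/- PCs. Of the 35, 12 averaged 1 RPKM or more, with 5 over 2-fold lower and 0 over 2-fold higher in Kai1-/- PCs, and their median log2 ratio was -0.60 beside 0.08 over all genes, of which 7.81% were over 2-fold lower and 7.98% higher. Adora2b, the gene of the A2B adenosine receptor, was at 7.44 RPKM in WT and 0.729 in Kai1-/- PCs, a ratio of -3.19. Htr2a, a serotonin receptor gene, was at 1.91 and 0.338, a ratio of -2.20, and P2ry6, a receptor gene for uridine diphosphate, at 1.65 and 0.414, a ratio of -1.77. Adora2b, Htr2a and P2ry6 were below 1 RPKM in Kai1-/- PCs and so averaged 1 RPKM through their WT values. The alpha-1 adrenergic receptor genes were the most abundant of the 5, with Adra1b at 34.7 and 10.2, a ratio of -1.76, and Adra1d at 14.5 and 5.37, a ratio of -1.42.

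Other receptor genes differed less. F2r, the gene of the thrombin receptor PAR1 and the most abundant of the list, was at 85.9 in WT and 80.3 in Kai1-/- PCs, a ratio of -0.10 that was -0.60 with scaling to Gapdh. The sphingosine-1-phosphate receptor genes S1pr2 and S1pr3 were at 17.2 and 22.2, and at 10.6 and 16.9, ratios of 0.37 (-0.13 with scaling to Gapdh) and 0.66. F2r, S1pr2 and S1pr3 were chosen after their values were seen, as was Adra1d. With 1 library per genotype none of these differences has a replicate check.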
